A study of Mus musculus with 2 samples.

Results

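The 10 genes described here are 4 ligands of the bone morphogenetic protein (BMP) and activin family (Bmp2, Bmp4, Bmp6 and Inhba), 3 secreted antagonists (Grem1, Bmper and Fst) and 3 ID target genes (Id1, Id2 and Id3). They were taken by name from the 19169 genes of the deposited single-cell table, and all 10 are listed there. Gastrocnemius muscle was collected 14 days after it had been injured with cardiotoxin (CTX), a toxin from cobra venom that lyses myofibers, and single cells were sequenced in droplets to ask how immune and stromal cells differ when gasdermin E is lost. One library came from WT mice and 1 from GSDME-KO mice, which carry a global knockout of Gsdme; both groups received CTX. The mice were male and the WT strain was C57BL/6J; the age of these mice is not given in the sources used here. The methods give 5 mice per genotype and do not say whether they were pooled.

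With 1 library per genotype there was no test between genotypes, and no p-value is given. Each value is the number of unique molecular identifiers (UMIs, 1 per captured RNA molecule) of a gene per 1000000 UMIs (CPM), summed over the cells of a type in a library. Intervals are exact 95% intervals (Poisson for a level, binomial for a ratio) and cover counting error only. Cell types are said to overlap where their spans over both libraries meet. A span runs from the lowest to the highest bound of the intervals of a type in the 2 libraries. Types whose spans overlap may still be apart within a library. A difference is described as past 1.5-fold only for genes with at least 50 UMIs in that cell type over both libraries. A lower sum may come from fewer cells with the RNA or from less RNA per cell, and summed UMIs do not tell these apart.

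The table holds 6354 cells with 44758518 UMIs from the library labelled WT and 7078 cells with 50930009 UMIs from the library labelled KO, and the 2 share 4 barcodes. Gsdme, the targeted gene, was at 5.03 CPM (225 UMIs) in the library labelled WT and at 4.65 CPM (237 UMIs) in the library labelled KO, so its RNA did not separate the labels; the part of the gene that was deleted is not given in the sources used here. The libraries are therefore called WT-labelled and KO-labelled, and every direction below rests on those labels. Clusters, drawn without the 10 genes and without 53 other genes of the pathway, gave 14 named cell types, each holding 25 or more cells per library; a name means that a cluster resembles that type by its markers. The FAP-like cells (fibro-adipogenic progenitors) numbered 1634 and 2106, the endothelial-like 1199 and 1197, the macrophage-like 823 and 1000, the tenocyte-like 439 and 388, the MuSC-like (muscle stem cells) 249 and 247 and the mural-like (pericytes and smooth muscle) 185 and 201 in the WT-labelled and KO-labelled library. Each of these types held all of its own markers in both libraries, which says little, because summed cells held markers of other types too. FAP-like cells held all 8 endothelial markers, at 149 and 115 CPM summed, beside their own 8 at 62859 and 64279.5 CPM. In MuSC-like cells the 6 MuSC markers summed to 1631 and 1861 CPM and the 8 FAP markers to 4748 and 4139 CPM. A further cluster of 303 and 360 cells carried mural and endothelial markers together and is given apart.

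BMP ligands bind paired serine/threonine kinase receptors, which activate SMAD1, SMAD5 and SMAD9, while activins act through SMAD2 and SMAD3. Antagonists such as gremlin 1, BMPER and follistatin bind the ligands outside the cell. The ID proteins, whose genes are among the best known BMP targets, lack a DNA-binding region and hold E proteins such as TCF4 away from DNA, and in muscle this pathway is known for its part in vessel growth, satellite cell behaviour and the choice of FAPs between fates.

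The promoters of 7 of the 10 genes are in the RefSeq table of GRCm38.p6, and those of Id3 and Id2, the ID genes among them, are shown. Each runs from 250 bases before the start of the gene to 50 after it, 5′ to 3′ on the strand of the gene, and capitals mark the letters GTCTG or GGCGCC on either strand (CAGAC is GTCTG on the other strand), which SMAD proteins are known to bind. Id3 is at chr4:136143572-136143871 on the plus strand and Id2 at chr12:25096043-25096342 on the minus strand.
Id3: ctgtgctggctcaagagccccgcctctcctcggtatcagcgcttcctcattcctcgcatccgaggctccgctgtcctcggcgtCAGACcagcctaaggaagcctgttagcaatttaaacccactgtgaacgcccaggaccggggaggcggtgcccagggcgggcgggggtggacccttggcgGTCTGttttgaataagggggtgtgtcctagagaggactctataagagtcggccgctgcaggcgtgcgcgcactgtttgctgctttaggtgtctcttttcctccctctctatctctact
Id2: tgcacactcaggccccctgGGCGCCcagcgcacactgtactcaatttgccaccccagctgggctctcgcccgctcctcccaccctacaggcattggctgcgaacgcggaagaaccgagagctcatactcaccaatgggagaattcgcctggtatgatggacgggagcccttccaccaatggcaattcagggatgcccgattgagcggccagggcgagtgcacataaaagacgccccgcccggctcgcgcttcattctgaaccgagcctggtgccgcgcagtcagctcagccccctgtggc
Id3 held GTCTG 2 times and Id2 held GGCGCC 1 time, without overlap. GTCTG was present in 3 of the 7 promoters and GGCGCC in 2 of the 7, beside 49.6% and 11.9% of all 32851 promoters in that table.

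Among the ligands, Bmp2, which drives bone formation in other settings, was highest in mural-like cells, at 150.0 CPM (interval 116 to 191) in the WT-labelled and 158 CPM (126 to 196) in the KO-labelled library. Tenocyte-like cells came next with 93.2 and 84.1 CPM and FAP-like cells after them with 70.8 and 73.1 CPM. The spans of tenocyte-like and FAP-like cells overlapped, whereas mural-like cells stood above tenocyte-like cells and FAP-like cells above all lower types. Within the WT-labelled library, tenocyte-like cells (85.2 to 102) lay above FAP-like cells (66.3 to 75.6). Macrophage-like cells (38.4 and 45.6 CPM), endothelial-like cells (26.0 and 51.6 CPM) and MuSC-like cells (24.2 and 23.3 CPM) each had a span that overlapped the next. Yet macrophage-like cells (32.8 to 44.6) lay above endothelial-like cells (22.5 to 30.0) within the WT-labelled library. Endothelial-like cells (46.5 to 57.2) lay above MuSC-like cells (16.1 to 32.5) within the KO-labelled library. The cells with mural and endothelial markers together held 114 and 148 CPM. In FAP-like cells Bmp2 was read most in the group resembling Hsd11b1+ Mme+ FAPs, at 149 and 127 CPM, and least among the named groups in those resembling Clu+ Myoc+ FAPs (35.5 and 24.5 CPM) and Sfrp1+ Sfrp4+ FAPs (28.5 and 35.5 CPM).

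Bmp4 had its highest levels in MuSC-like cells, at 95.2 CPM (81.7 to 110.3) and 123 CPM (106 to 143). FAP-like cells followed with 80.9 and 65.1 CPM and endothelial-like cells with 57.3 and 66.2 CPM, and the spans of neighbouring types in this order overlapped. Within the KO-labelled library MuSC-like cells lay above FAP-like cells (61.4 to 68.9). Within the WT-labelled library FAP-like cells (76.0 to 86.0) lay above endothelial-like cells (52.0 to 63.0). Tenocyte-like cells, at 39.5 and 37.8 CPM, stood below all of these types. Within the FAP-like cells the same Hsd11b1+ Mme+ group was again highest, at 191 and 165 CPM, and the Pi16+ Dpp4+ group was at 33.0 and 27.7 CPM. Within the endothelial-like cells the venous-like group held 149 and 241 CPM and the arterial-like group 60.1 and 77.0 CPM.

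Bmp6, known as an iron-sensing endothelial ligand in the liver, was shared by MuSC-like cells (66.7 and 176 CPM), endothelial-like cells (76.7 and 78.0 CPM) and Schwann-like cells (61.0 and 88.7 CPM), whose spans over both libraries overlapped. Within the KO-labelled library MuSC-like cells (155 to 199) lay above endothelial-like cells (71.6 to 84.8) and Schwann-like cells (70.6 to 110). FAP-like cells held only 14.2 and 15.7 CPM, most of it in the Pi16+ Dpp4+ group, at 43.3 and 43.7 CPM. Among endothelial groups, one led by Mbp and Aplnr (151 and 150.1 CPM) lay above the arterial-like group (29.8 and 38.5 CPM), in which Bmp2 was at 39.7 and 89.0 CPM.

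Inhba, which encodes the subunit of activin A, was at 128 CPM (118 to 138) and 71.4 CPM (64.0 to 79.4) in tenocyte-like cells. Schwann-like cells had 59.1 and 109 CPM, so tenocyte-like cells were highest in the WT-labelled and Schwann-like cells in the KO-labelled library, and FAP-like cells had 56.1 and 48.7 CPM, below tenocyte-like cells in both. Endothelial-like cells had 4 and 3 UMIs. A FAP-like group led by Igkc and Tnc held 137 and 105 CPM, the highest of the FAP-like groups. Few cells carried much of it: 191 of 713 UMIs in WT-labelled FAP-like cells came from 5 cells. In Schwann-like cells 5 cells per library held 35 of 63 and 80 of 101 UMIs, and 1 KO-labelled cell held 49. Inhba was read in 12.8% and 12.2% of Schwann-like cells.

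**Figure D1:**
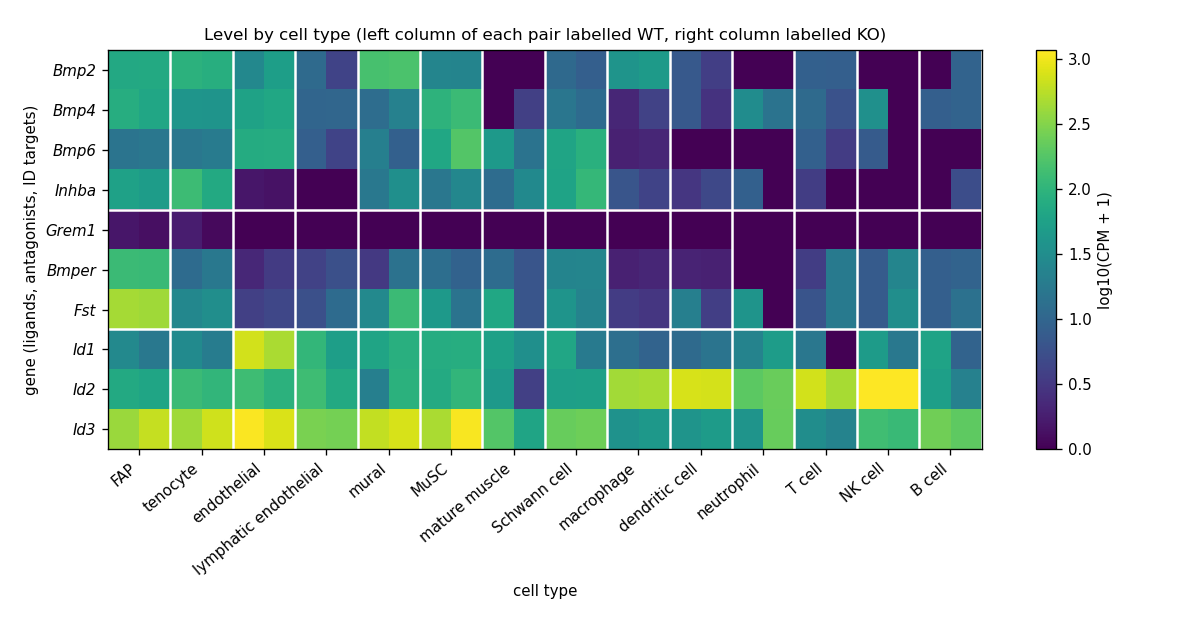
Level of each of the 10 genes (rows) in 14 cell types (paired columns, WT-labelled left and KO-labelled right), as log10(CPM + 1) on the colour scale. Fst and Bmper are brightest in FAP-like cells, Id1 in endothelial-like cells, Id2 in NK-like, dendritic-like and T-like cells, and Id3 in most types that are not leukocytes.

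Fst and Bmper were highest in FAP-like cells. Fst, encoding follistatin, which binds activins and myostatin, was at 457 CPM (445 to 469) in the WT-labelled and 425 CPM (416 to 435) in the KO-labelled library, above every other type. Mural-like, mature muscle-like, Schwann-like, MuSC-like and tenocyte-like cells followed with levels from 5.54 to 123 CPM that overlapped between neighbours. All FAP-like groups carried Fst, from 756 and 736 CPM in the Clu+ Myoc+ group to 197 and 207 CPM in the Hsd11b1+ Mme+ group among the named groups. Bmper, which encodes a BMP-binding endothelial regulator, was at 122 CPM (116 to 129) and 119 CPM (114 to 124) in FAP-like cells and at 23.4 and 23.8 CPM in Schwann-like cells, the next type. Among the named groups it was highest in the Hsd11b1+ Mme+ group with 251 and 213 CPM, which held the least Fst of them, and lowest in the Pi16+ Dpp4+ group with 29.8 and 34.5 CPM. An unnamed group led by Dnm3os was at 240.2 and 236 CPM on 20 and 40 UMIs. Grem1, encoding gremlin 1, was barely read: 11 UMIs in the WT-labelled and 7 in the KO-labelled library, of which FAP-like cells held 7 and 6 and tenocyte-like cells the remaining 4 and 1. The other named types held 0 UMIs. By the limit of 3 UMIs that a count of 0 allows, this leaves room for levels of up to 0.405 CPM in WT-labelled endothelial-like cells and of up to 33.1 CPM in the few WT-labelled mature muscle-like cells.

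**Figure D2:**
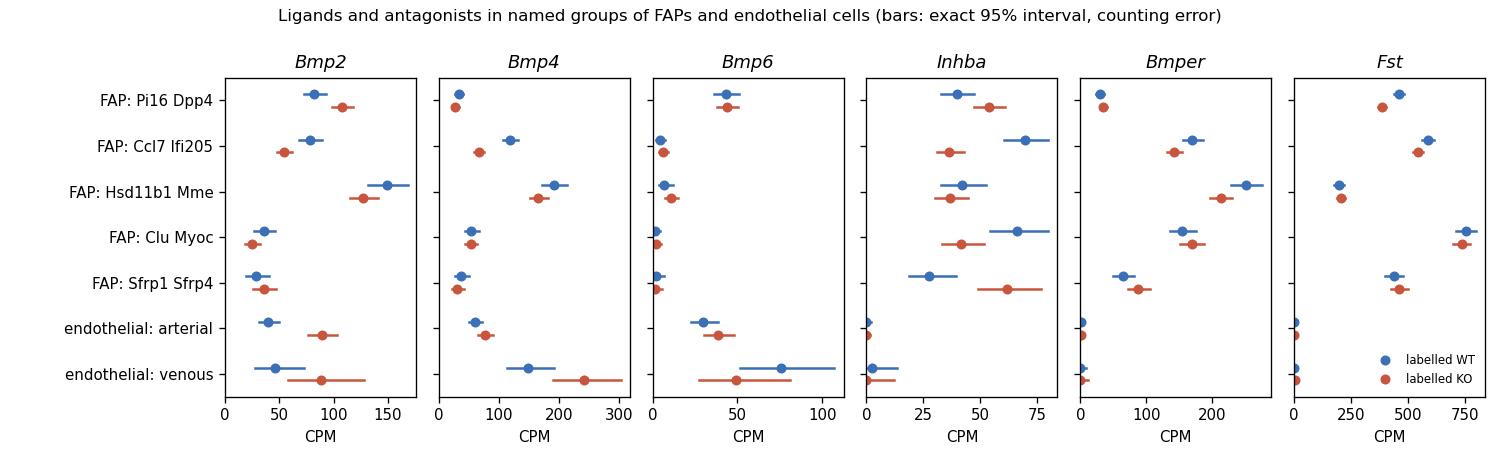
Levels in CPM of 4 ligands and 2 antagonists in 5 named groups of FAP-like cells and 2 of endothelial-like cells; blue points are the WT-labelled and red the KO-labelled library, and bars are exact 95% Poisson intervals. Bmp2, Bmp4 and Bmper peak in the Hsd11b1 Mme group of the FAP-like groups shown, where Fst is lowest of these, and Bmp6 among FAP-like cells lies mainly in the Pi16 Dpp4 group.

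The 3 ID genes had different places. Id1 was an endothelial gene, at 734 CPM (714 to 753) and 479 CPM (463 to 495) in endothelial-like cells, and MuSC-like cells, the next type, had 79.1 and 80.8 CPM. Id2 was highest in several leukocyte types, at 1177 and 1176 CPM in NK-like cells, which stood above all other types, then at 758 and 752 CPM in dendritic-like, 719 and 471 CPM in T-like and 441 and 469.9 CPM in macrophage-like cells. B-like cells, at 52.4 and 21.4 CPM, were an exception among leukocytes. Among macrophage-like cells it was highest in a group led by Slc7a11 and Clec4e, at 684 and 700.3 CPM, and lower in the Lyve1+ Folr2+ group, at 227 and 224 CPM. Id3 was broad outside the leukocytes: endothelial-like cells held 1134 CPM (1110.0 to 1159) and 782 CPM (761 to 802), MuSC-like cells 478 and 1099 CPM, mural-like cells 623 and 777 CPM, tenocyte-like cells 428 and 706 CPM and FAP-like cells 408 and 629.9 CPM. The span of each over both libraries overlapped the next in this order. The highest type differed by library: endothelial-like cells in the WT-labelled and MuSC-like cells in the KO-labelled library. Below FAP-like cells, lymphatic endothelial-like cells with 279.7 and 268 CPM stood apart from them. Among the leukocytes, B-like cells, at 255 and 201 CPM, overlapped lymphatic endothelial-like cells, and neutrophil-like cells were at 38.2 and 229 CPM.

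Across the 14 types and both libraries (28 points, which share their libraries), the genes most like each member were named from 10303 genes with at least 500 UMIs by Pearson's r of log2(CPM + 10), a description without a test. For Id1 these were Cdh13 (0.87), Cav1 (0.87) and Timp4 (0.85), and for Fst they were Dpep1 (0.91), Entpd2 (0.88) and Gsn (0.88). Inhba was most like Scrn1 (0.93), Epb41l3 (0.92) and Col16a1 (0.92), and Bmp6 was most like Auts2 (0.87), Pakap.2 (0.85) and Inhbb (0.83), another subunit of activins. Bmper was most like Tmeff2 (0.89), Adgrd1 (0.87) and Adamtsl2 (0.86), and Id2 like Tnfaip3 (0.87), Dok2 (0.87) and Ccr2 (0.85). Id3 was most like Ptprg (0.87), Nfia (0.86) and Cdc42bpa (0.86), Bmp2 like Psd3 (0.84), Nfatc4 (0.83) and Rnd2 (0.83), and Bmp4 like Lpin3 (0.81), Tor1aip1 (0.81) and Adarb1 (0.81). The 18 UMIs of Grem1 are too few for such a comparison.

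In endothelial-like cells, all 3 ID genes were lower in the KO-labelled library. Id1 had 5440 UMIs (734 CPM) in the WT-labelled and 3365 UMIs (479 CPM) in the KO-labelled library, a log2 ratio of -0.62 (-0.68 to -0.55) with the WT-labelled library as the base, as in all ratios that follow. Id3 was at 1134 and 782 CPM (log2 ratio -0.54, -0.59 to -0.49), and Id2 at 131 and 92.2 CPM (-0.50, -0.65 to -0.36). Only Id1 of these was past 1.5-fold, and with coarser clusters (resolution 0.4) it was not, at -0.55. Of the 6 members with at least 50 UMIs in this type, 1 (16.7%) was at least 1.5-fold lower and 1, Bmp2, at least 1.5-fold higher, beside 3.83% and 4.35% of the 10123 genes tested there. After each cell had been thinned to 1000 UMIs, which left out 28 and 24 shallower cells, Id1 was read in 44.7% and 36.3% of endothelial-like cells and Id3 in 57.7% and 47.1% (79.0% and 68.3%, and 85.7% and 79.4%, without thinning). In macrophage-like cells, at a median of 5189 and 5271.5 UMIs per cell against 4549 and 4205 in endothelial-like cells, the thinned shares were 1.08% and 0.994% for Id1 and 4.05% and 3.54% for Id3.

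Id1 was read more often in endothelial-like cells that had an Id3 UMI than in those that had none. Of thinned cells with an Id3 UMI, 53.8% also had an Id1 UMI in the WT-labelled library, against 32.1% of cells without one. In the KO-labelled library these shares were 44.9% and 28.7%. Both genes were read less often in the KO-labelled library, and cells with a UMI of each numbered 364 and 248 of 1171 and 1173.

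The lower ID levels were spread over the endothelial-like groups. All 8 groups had a lower Id1 level in the KO-labelled library, with log2 ratios from -1.58 to -0.17, and the interval lay below 0 in 7, all but a group of 3 and 6 cells led by Cd74 and H2-Aa, genes of antigen-presenting cells. Another of the 8, with 15 and 18 cells, was led by haemoglobin genes and held the FAP genes Gsn and Dcn among its leading genes, so these 2 small groups carry RNA of other classes. Id1 was at 409 and 137 CPM in the venous-like group, at 494 and 257 CPM in a group led by Apln and Pgf, known from sprouting endothelium, and at 577 and 513 CPM in the arterial-like group. Id3 was also lower in 8 of 8 groups, at 1697 and 1096 CPM in the group led by Mbp and Aplnr and at 668 and 548 CPM in the venous-like group. Id2 was lower in 6 of the 6 groups with at least 30 UMIs. Lymphatic endothelial-like cells had Id1 at 106 and 51.5 CPM (-1.05, -1.69 to -0.43), and Id3 at 279.7 and 268 CPM (-0.06, -0.37 to 0.25). In the cells that carried mural and endothelial markers together, Id1 was at 368 and 294 CPM (log2 ratio -0.32, -0.43 to -0.22), while Id3 was at 680.0 and 657 CPM (-0.05, -0.12 to 0.02).

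Several other BMP target genes were lower in endothelial-like cells as well. Of the 7 listed targets outside the members, 6 had at least 50 UMIs. Of these, 3 were at least 1.5-fold lower and none higher, beside 3.83% and 4.35% of the 10123 genes tested. Their median log2 ratio was -0.59 beside 0.03 over all genes tested. Smad7, an inhibitory SMAD, was at 326 and 190.4 CPM (log2 ratio -0.78, -0.87 to -0.68) and was lower in 7 of the 7 groups with at least 30 UMIs, with an interval below 0 in 5. Atoh8, a BMP-responsive transcription factor of endothelium, was at 36.5 and 20.1 CPM (-0.87, -1.17 to -0.57), and Id4, the remaining ID gene, at 27.9 and 16.5 CPM (-0.76, -1.10 to -0.42). Smad6, a further inhibitory SMAD, was at 18.9 and 14.1 CPM (-0.42, -0.81 to -0.04), whereas Msx1 was at 79.4 and 77.1 CPM (-0.04, -0.21 to 0.13) and Hey1, a Notch target too, at 68.8 and 78.5 CPM (0.19, 0.02 to 0.37). Bambi, a decoy receptor that is itself a BMP target, was at 209 and 151 CPM (-0.47, -0.58 to -0.36).

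On the receiving side, the receptor genes of endothelial-like cells stayed within 1.5-fold: none of the 8 receptor genes with enough UMIs was past it in either direction. Eng, encoding the co-receptor endoglin, was at 556 and 477 CPM (log2 ratio -0.22, -0.29 to -0.15), and Acvrl1, encoding the BMP9 and BMP10 receptor ALK1, at 166 and 136 CPM (-0.28, -0.40 to -0.16). Inhbb was at 12.7 and 18.8 CPM (0.57, 0.17 to 0.96) and Smad1, a signal transducer, at 188 and 275 CPM (0.55, 0.45 to 0.65), and Tcf4, encoding an E protein bound by ID proteins, at 1326 and 1727 CPM (0.38, 0.34 to 0.42). All 3 were higher in the KO-labelled library by less than 1.5-fold, and a link to the ID levels was not tested. Among other antagonists, Nbl1 was at 17.1 and 7.97 CPM (-1.10, -1.58 to -0.64) and Dand5 at 20.4 and 10.7 CPM (-0.93, -1.35 to -0.52). Over all 53 listed pathway genes outside the members, 27 passed the filter here. Of these, 6 were at least 1.5-fold lower and 0 higher, beside 3.83% and 4.35% of the 10123 genes tested. The 6 lower genes were Smad7, Atoh8, Id4, Nbl1, Dand5 and Gdf11, a ligand at 7.69 and 4.98 CPM (-0.63, -1.28 to 0.01).

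Bmp2 was higher in the KO-labelled endothelial-like cells, with 193 UMIs (26.0 CPM, 22.5 to 30.0) in the WT-labelled and 363 UMIs (51.6 CPM, 46.5 to 57.2) in the KO-labelled library, a log2 ratio of 0.99 (0.73 to 1.25). All 4 groups with at least 30 UMIs over both libraries were higher, with an interval above 0 in 3: arterial-like (39.7 and 89.0 CPM), venous-like (46.3 and 88.1 CPM), led by Apln and Pgf (88.2 and 123 CPM) and led by Fbxl18 and Arl4d (7.0 and 16.6 CPM). Below that number of UMIs, the group led by Mbp and Aplnr was lower, with 14 and 4 UMIs (11.4 and 3.39 CPM, log2 ratio -1.75, -3.81 to -0.08). Without the 5 cells highest in Bmp2 in each library, which held 65 and 112 of these UMIs, the log2 ratio was 1.04. Bmp4 and Bmp6 had log2 ratios of 0.21 (0.01 to 0.40) and 0.02 (-0.15 to 0.20). Without cells that held 3 or more markers of another lineage (625 and 674 cells left) the log2 ratio of Bmp2 was 1.56. The 29 listed immediate-early and heat-shock genes, which cell dissociation is known to induce, summed to 44449 and 52736 CPM in these cells, the 8 mural markers to 1056 and 1434 CPM and the red-cell genes to 1317 and 5751 CPM. Their part in these differences was not tested.

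**Figure D3:**
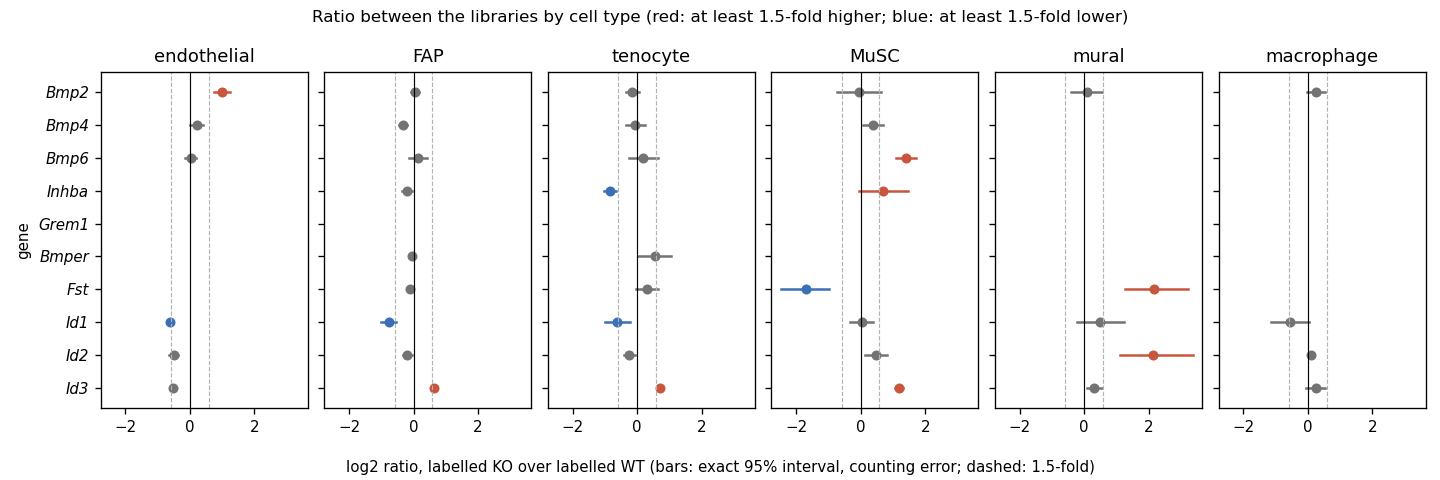
Log2 ratio of the KO-labelled over the WT-labelled library (x axis) for members with at least 50 UMIs in 6 cell types; bars are exact 95% binomial intervals and dashed lines mark 1.5-fold. Id3 lies left of 0 in endothelial-like cells and right of 0 in FAP-like, tenocyte-like and MuSC-like cells, while Id1 lies left of 0 in endothelial-like, FAP-like and tenocyte-like cells.

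In FAP-like cells, Id1 and Id3 differed in opposite directions between the libraries. Id3 was higher in the KO-labelled library, with 5179 UMIs (408 CPM, 397 to 419) against 11377 UMIs (629.9 CPM, 618 to 642), a 1.55-fold level (log2 ratio 0.63, 0.58 to 0.68). Id1 was lower, with 341 UMIs (26.8 CPM, 24.1 to 29.8) against 286 UMIs (15.8 CPM, 14.1 to 17.8), a log2 ratio of -0.76 (-0.99 to -0.53). Averaged over cells in place of summed, Id3 was within 1.5-fold (0.57). The other 7 members that passed the filter stayed within 1.5-fold. Thus 1 of 9 members (11.1%) was past 1.5-fold in each direction, beside 3.69% of 11464 genes higher and 6.52% lower. In thinned cells Id3 was read in 26.8% and 36.6% of FAP-like cells and Id1 in 2.59% and 1.43%; without thinning Id3 was read in 68.5% and 76.4%.

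Id3 was higher in 7 of 9 FAP-like groups, each with an interval above 0. One of the 7, with 28 and 25 cells, was led by Fabp4, Aqp1 and endothelial genes such as Cdh5 and Flt1. Id3 was at 566 and 1076 CPM in the Hsd11b1+ Mme+ group, at 277 and 536 CPM in the Ccl7+ Ifi205+ group, at 772 and 1127 CPM in the Clu+ Myoc+ group and at 219 and 338 CPM in the Pi16+ Dpp4+ group. The Sfrp1+ Sfrp4+ group was the exception with an interval below 0, at 586 and 506 CPM (log2 ratio -0.21, -0.37 to -0.05). In the Hsd11b1+ Mme+ group, Id1 was at 47.0 and 18.8 CPM, and Id2 at 53.3 and 71.7 CPM. That group was also led by the heat-shock genes Hspa1a and Hspa1b and by Fos and Jun. Over all FAP-like cells the early and heat-shock list summed to 26651 and 35993 CPM. Of its 29 genes, 10 were at least 1.5-fold higher and 1 lower, beside 3.69% and 6.52% of 11464 genes. The 8 endothelial markers summed to 149 and 115 CPM, the 8 tenocyte markers to 397 and 755 CPM and the red-cell genes to 67.3 and 579 CPM. The part of all these genes in the ID levels was not tested.

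Among ligands and antagonists of FAP-like cells, Bmp4 was at 80.9 and 65.1 CPM (log2 ratio -0.31, -0.44 to -0.19) and Inhba at 56.1 and 48.7 CPM (-0.20, -0.35 to -0.06). Bmp2 (0.05, -0.08 to 0.17), Bmp6 (0.14, -0.13 to 0.42), Bmper (-0.04, -0.14 to 0.05) and Fst (-0.10, -0.15 to -0.05) differed less than 1.5-fold. Both were lower in the Ccl7+ Ifi205+ group: Bmp4 was at 119 and 66.2 CPM (-0.85, -1.08 to -0.62) and Inhba at 69.5 and 36.4 CPM (-0.93, -1.24 to -0.62). In the Sfrp1+ Sfrp4+ group Inhba was instead at 27.6 and 61.8 CPM (1.16, 0.55 to 1.81), and in the group led by Igkc and Tnc Fst was at 173 and 385 CPM (1.15, 0.91 to 1.41). Of 41 further pathway genes that passed the filter in FAP-like cells, 1 was at least 1.5-fold higher, the activin receptor gene Acvr1b (7.32 and 12.1 CPM), and 2 lower, Gdf11 (11 and 7.09 CPM) and Dand5 (15 and 6.15 CPM). Over all 11464 genes tested in this type, 3.69% were higher and 6.52% lower by that measure. Smad7 was at 156 and 133 CPM and Msx1 at 42.2 and 31.3 CPM, both within 1.5-fold. The genes with the most CPM of their role in FAP-like cells were also within 1.5-fold: the ligand Gdf10 (113 and 102 CPM), the antagonist Nbl1 (413 and 377 CPM), the receptor Bmpr2 (159 and 169 CPM), Smad1 (113 and 133 CPM) and the ID partner Tcf4 (483 and 581 CPM).

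**Figure D4:**
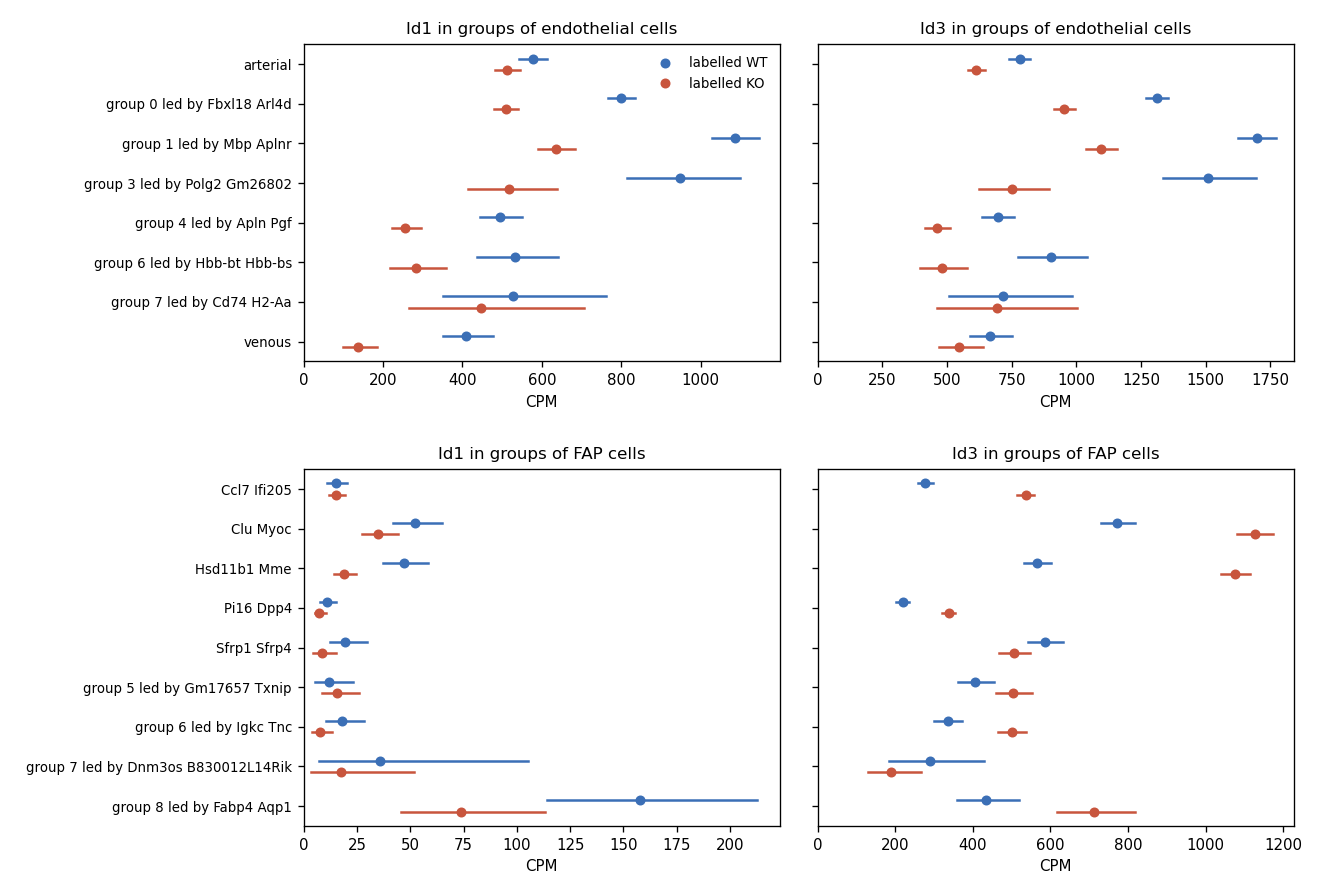
Id1 (left) and Id3 (right) in CPM in the groups of endothelial-like (top) and FAP-like (bottom) cells; blue is WT-labelled, red is KO-labelled and bars are exact 95% Poisson intervals, with an axis of its own in each panel. Red lies left of blue in all 8 endothelial-like groups for both genes, and for Id3 it lies right of blue in 7 of 9 FAP-like groups.

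In tenocyte-like cells, too, Id3 was higher and Id1 lower in the KO-labelled library. Id3 was at 428 and 706 CPM (log2 ratio 0.72, 0.64 to 0.80) and Id1 at 28.2 and 18.5 CPM (-0.61, -1.0 to -0.22). Inhba was lower, with 690 UMIs (128 CPM) in the WT-labelled and 336 UMIs (71.4 CPM) in the KO-labelled library, a log2 ratio of -0.84 (-1.03 to -0.65). Without the 5 cells highest in Inhba in each library, which held 184 and 76 UMIs, the log2 ratio was -0.76. Of 9 members that passed the filter, 1 (11.1%) was at least 1.5-fold higher and 2 (22.2%) lower, beside 6.89% and 4.26% of 9360 genes. Mstn, encoding myostatin, a ligand that follistatin binds, was at 21.7 and 105 CPM (2.28, 1.98 to 2.58) in tenocyte-like cells, and no other type held more than 5 UMIs of it in a library. Fst was at 25.6 and 31.7 CPM in the same cells. Of the 36 further pathway genes with enough UMIs there, 4 were at least 1.5-fold higher (Mstn, Acvr1b, Rgma and Hey1) and 2 lower (Gdf10 and Dand5). Nbl1 (367 and 397 CPM), Bmpr2 (109 and 128 CPM), Smad1 (103 and 120 CPM), Smad7 (114 and 90.1 CPM) and Tcf4 (472 and 687 CPM), the most read of their roles, were within 1.5-fold. Id3 was within 1.5-fold when averaged over cells (0.53) or thinned (0.49). Id1 was within it under 4 of 11 alternatives, at -0.15 without cells holding 3 markers of another lineage. The early and heat-shock list summed to 29309 and 34530.4 CPM and the tenocyte markers to 22306 and 21037 CPM, and their part in these values was not tested.

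In MuSC-like cells Id3 and Bmp6 were read more in the KO-labelled library. Id3 was at 889 UMIs (478 CPM, 447 to 511) and 1604 UMIs (1099 CPM, 1046 to 1154), a 2.30-fold level (log2 ratio 1.2, 1.08 to 1.32). Bmp6 was at 124 UMIs (66.7 CPM, 55.5 to 79.6) and 257 UMIs (176 CPM, 155 to 199), a log2 ratio of 1.40 (1.08 to 1.72). In thinned cells Id3 was read in 32.9% and 48.1% and Bmp6 in 7.0% and 14.4% of MuSC-like cells. Id2 was at 75.3 and 105 CPM (0.49, 0.15 to 0.83), Bmp4 at 95.2 and 123 CPM (0.37, 0.07 to 0.68) and Id1 at 79.1 and 80.8 CPM (0.03, -0.33 to 0.39). Inhba passed 1.5-fold on 29 and 37 UMIs, with an interval that held 0 (0.70, -0.04 to 1.45).

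Of 8 members that passed the filter in MuSC-like cells, 3 (37.5%) were at least 1.5-fold higher and 1 lower, beside 13.1% and 9.8% of 6572 genes, so differences of this size were common in these cells. The lower member was Fst, with 82 UMIs (44.1 CPM) and 20 UMIs (13.7 CPM), of which 59 and 15 came from 5 cells in each library. The 8 FAP markers summed to 4748 and 4139 CPM in MuSC-like cells against 62859 and 64279.5 CPM in FAP-like cells and the part of FAP RNA in the Fst value was not tested. Most MuSC-like cells held 3 or more markers of another lineage, and only 20 and 39 cells were left without them. In those, Id3 (1.78) and Bmp6 (2.26, on 5 and 31 UMIs) stayed higher, while Fst was at 0.63 on 1 and 2 UMIs. Among the further pathway genes, Smad7 was at 75.3 and 132 CPM (0.80, 0.48 to 1.13), the BMP receptor gene Bmpr1a at 47.3 and 73.3 CPM (0.63, 0.21 to 1.05), Tcf4 at 281 and 536 CPM (0.93, 0.77 to 1.09) and Inhbb at 13.5 and 22.6 CPM (0.75, -0.05 to 1.56), and Eng was at 25.8 and 12.3 CPM (-1.07, -1.94 to -0.26). These 5 were the genes past 1.5-fold of the 23 with enough UMIs, while Nbl1 (176 and 136 CPM), Bmpr2 (101 and 136 CPM) and Smad4 (103 and 79.4 CPM), the most read of their roles, were within it. In the same cells 19 of 29 early and heat-shock genes were at least 1.5-fold higher and 1 lower, with a median log2 ratio of 0.90, and their part in the higher Id3 and Bmp6 levels was not tested.

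**Figure D5:**
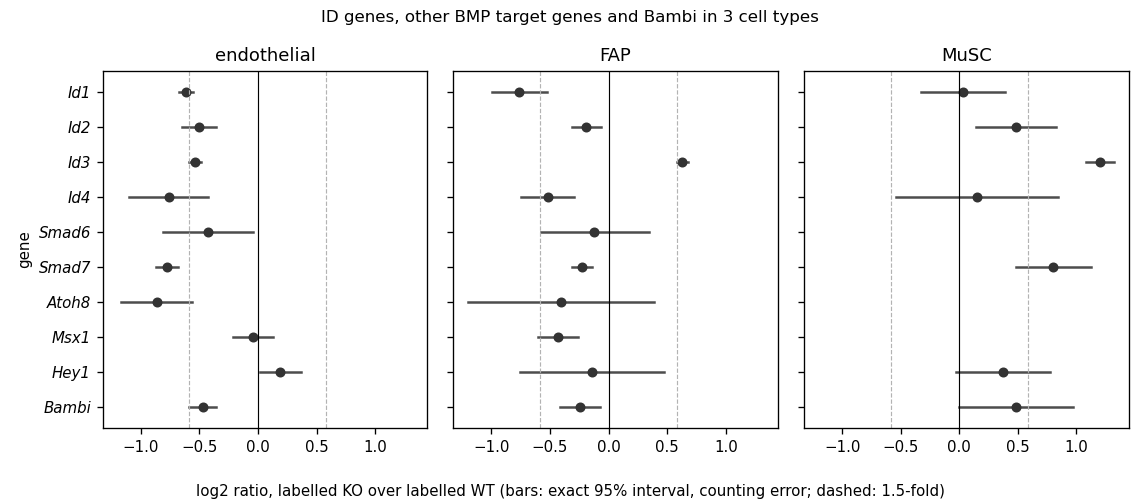
Log2 ratio of the KO-labelled over the WT-labelled library (x axis) of ID genes, other BMP target genes and Bambi in endothelial-like, FAP-like and MuSC-like cells; bars are exact 95% binomial intervals, dashed lines mark 1.5-fold and genes under 50 UMIs are left out. Smad7 lies at -0.78 in endothelial-like and at 0.80 in MuSC-like cells.

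Mural-like cells were few and shallow, and 5 members passed the filter. Fst, with 12 and 64 UMIs, was at 27.3 and 123 CPM (log2 ratio 2.18, 1.27 to 3.20), and Id2, with 9 and 47 UMIs, was at 20.5 and 90.6 CPM (2.15, 1.10 to 3.36). These 2 members (40%) were at least 1.5-fold higher and none lower, beside 7.95% and 10.5% of 3508 genes. In each case 5 KO-labelled cells held more than 30 UMIs (38 for Fst and 34 for Id2). In the KO-labelled mural-like cells the FAP markers summed to 6219 CPM against 3289 CPM, the red-cell genes to 19987 against 129.5 CPM and the dendritic cell markers to 480 against 109 CPM, and their part in both values was not tested. Without cells that held 3 or more markers of another lineage, 5 and 3 Fst UMIs were left and its log2 ratio was -0.86. For Id2, 3 and 26 UMIs were left. Id2 stayed at least 1.5-fold higher under all 11 alternatives, with log2 ratios from 1.12 to 2.99. In the cells with mural and endothelial markers together, Fst had 90 and 79 UMIs and Id2 at 74.1 and 77.8 CPM, neither past 1.5-fold. Id3 was at 623 and 777 CPM (0.32, 0.09 to 0.55), Id1 at 61.4 and 86.7 CPM (0.50, -0.22 to 1.24) and Bmp2 at 150.0 and 158 CPM (0.08, -0.41 to 0.57) in the mural-like cells. None of the 15 further pathway genes with enough UMIs was past 1.5-fold there, among them the ligand Bmp5 (109 and 143 CPM), Nbl1 (341 and 293 CPM), Bmpr2 (182 and 162 CPM), Smad4 (95.5 and 73.2 CPM), Smad7 (214 and 225 CPM) and Tcf4 (602 and 790.1 CPM).

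In macrophage-like cells none of the 4 members that passed the filter was past 1.5-fold, beside 4.4% of 8660 genes higher and 7.29% lower. Id2 was at 441 and 469.9 CPM (log2 ratio 0.09, 0.01 to 0.18), Bmp2 at 38.4 and 45.6 CPM (0.25, -0.04 to 0.54), Id3 at 36.1 and 42.8 CPM (0.25, -0.05 to 0.55) and Id1 at 12.3 and 8.38 CPM (-0.55, -1.15 to 0.05). Within them Bmp2 differed by group: it was at 64.7 and 101 CPM in the Lyve1+ Folr2+ group (0.65, 0.25 to 1.06) and at 29.4 and 14.4 CPM in the group led by Slc7a11 and Clec4e (-1.03, -1.67 to -0.41). Eng was at 36.5 and 23.3 CPM, Dand5 at 34.0 and 8.75 CPM and Twsg1, a BMP-binding protein, at 7.72 and 13.8 CPM, and these were the only pathway genes past 1.5-fold of the 20 with enough UMIs. Acvrl1 (62.9 and 60.9 CPM), Smad2 (43.6 and 39.3 CPM), Smad7 (58.5 and 44.1 CPM) and Tcf4 (223 and 282 CPM), the most read of their roles, were within it.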

How the data were processed

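Muscle cells of 1 WT and 1 GSDME-KO mouse group were profiled with the 10x 5′ kit. Per the labels, reads were counted with Cell Ranger 2.1.1 on mm10; the methods name another release. The authors removed doublets and cells rich in mitochondrial RNA, and deposited 1 table for both libraries whose values are the natural log (ln) of 1 plus UMIs per 10000 UMIs of the cell; barcode endings name the library. The log was undone to whole UMIs, within 0.248 UMI for all 29528482 values above 0. Median depth was 5740 UMIs per cell (WT-labelled) and 5962.5 (KO-labelled).

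Cells were clustered as in the methods (2000 variable genes, Harmony, rewritten here, resolution 0.8), with 30 principal components and Louvain clustering, leaving out members and pathway genes. Clusters were named by their best marker set (mean log2 fold of 0.5 or more); this limit and the rules that kept mixed clusters apart were set after the clusters had been seen. Scrublet called 101 and 109 cells, which stayed in. Within FAP-like, endothelial-like and macrophage-like cells clustering was repeated at resolution 0.5. The analysis ran under Python 3.11.15 with scipy 1.17.1, Louvain clustering in igraph 0.11.9 and Scrublet in scanpy 1.11.5. The ratio step was tested on simulated data. All members were named; further pathway genes were named where past 1.5-fold or highest of their role, and Smad6, Msx1, Hey1 and Acvrl1 after their values were seen. The members and lists were chosen with earlier results of these data known. Depth limits precision as the intervals show. Alternatives covered the clustering, filters, thinning and scaling.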

Additional observations from a re-analysis of the deposited data

Results flagged for a closer look

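In the 6 cell types compared in full, 4 of the 10 genes had log2 ratios of the KO-labelled over the WT-labelled library on opposite sides of 0 in different cell types, each with an interval clear of 0. The differences were not tested, since each genotype has 1 library. For Id3 the ratio was 1.2 in MuSC-like and -0.54 in endothelial-like cells, which are 1.74 apart. For Fst it was 2.18 in mural-like and -1.69 in MuSC-like cells, 3.86 apart, on 76 and 102 UMIs. For Id2 it was 2.15 in mural-like and -0.50 in endothelial-like cells, 2.65 apart, and for Bmp4 it was 0.37 in MuSC-like and -0.31 in FAP-like cells, 0.69 apart. Outside those types, Inhba was at 0.89 in Schwann-like cells, against -0.84 in tenocyte-like cells. Fst (37.5 and 22.7 CPM) and Id1 (64.7 and 17.3 CPM) were at least 1.5-fold lower in the KO-labelled Schwann-like cells. In the WT-labelled library 5 Schwann-like cells held 32 of 40 Fst UMIs, and 5 held 48 of 69 Id1 UMIs. The other members that passed the filter there were within 1.5-fold, and no share of all genes is given for this type. Of the 101 KO-labelled Inhba UMIs in Schwann-like cells, 80 came from 5 cells and 49 from 1 cell.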

How the results depend on the processing

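No paired analysis was possible because each genotype has 1 library, and for the same reason no replicate could be left out. In 5 types (all but tenocyte-like), 7 pairs of a member and a type were at least 1.5-fold higher in the KO-labelled library and 3 lower. For this setting the members tested and the shares of all genes past 1.5-fold are given above by type. For the settings that follow no such share is given, so their counts cannot be set against a background. With a fold of 2 these counts were 4 and 1, with no filter on UMIs 12 and 6, and 4 were higher with at least 200 UMIs and 4 without cells holding 3 markers of another lineage. The latter setting turned Fst to -0.86 in mural-like and to 0.63 in MuSC-like cells, on at most 5 UMIs per library, and gave no value for Inhba in MuSC-like cells; it moved Bmp2 in endothelial-like cells to 1.56, Bmp6 and Id3 in MuSC-like cells to 2.26 and 1.78, and Id3 in endothelial-like cells to -0.47. As a mean over cells, the log2 ratio was 1.25 for Bmp2 in endothelial-like and -0.55 for Inhba in tenocyte-like cells, and for Id3 it was 0.57 in FAP-like, 0.95 in MuSC-like and 0.53 in tenocyte-like cells. With cells thinned to 1000 UMIs it was 1.56 for Bmp2 in endothelial-like cells, and 0.82 and 0.49 for Id3 in MuSC-like and tenocyte-like cells. At resolution 0.4, Id1 and Id3 in endothelial-like cells were at -0.55 and -0.49, and centring on the median of all genes moved Id3 in FAP-like cells to 0.69. The cause was not tested. Of 13 pairs past 1.5-fold in 6 types, 11 kept their sign and 5 stayed past it under every alternative that gave a value (11, or 10 for Inhba in MuSC-like cells), of which leaving out the 5 cells highest in a gene was chosen after seeing the data. Depth limits each value as its interval shows.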
